A study of Mus musculus with 6 samples.

Results

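The adhesion G protein-coupled receptors were compared between neural progenitor cells (NPCs) from the tail and from the brachial level of mouse embryos. Members were taken from the gene annotation of the array: all transcript clusters assigned to exactly 1 symbol, where that symbol begins with Adgr or is Celsr1, Celsr2 or Celsr3. A transcript cluster gathers the probes of 1 transcribed locus, and the rule found 28 of 41345, which stand for 27 of the 22180 genes tested. The 3 tail samples came from the tail, from which somites were removed as far as possible, and the 3 brachial samples from the neural tube between the hindbrain and the forelimbs. The labels give E12.5 for all 6 samples, and their description line and the methods give E12. The labels give no genotype, strain or treatment of the embryos, and the supplementary methods name C57BL/6 mice as the source of wild-type embryos without tying them to the arrays. The dissected tissue was dissociated, and both groups were expanded as neurospheres in serum-free N2 and B27 medium containing the growth factors bFGF and EGF, so all values are from cultured cells. RNA of each sample was hybridized to 1 whole-transcript array.

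Adhesion G protein-coupled receptors join a long extracellular part with adhesion domains to a membrane part that couples to G proteins. Most members cut themselves in the GAIN domain next to the membrane, and the short stretch exposed when the extracellular part is pulled away can act as a tethered agonist. Ligands are often matrix proteins or proteins on the neighbouring cell, and in the nervous system the family is known for roles in synapse formation, planar cell polarity, vessel growth into the brain and myelination. Adgrg6 (Gpr126), which raises cAMP, is required for Schwann cells of peripheral nerves to start myelination.

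Promoters are shown for the 4 members with the largest fold change between tail and brachial NPCs in either direction, picked by its size alone. The RefSeq table of build GRCm38.p6 held 25 promoters of 21 of the 27 members, each a window of 300 bases around a transcription start. Capitals mark matches, on either strand, to 3 motifs named for the Wnt and retinoic acid pathways that the study perturbed and for basic helix-loop-helix factors. The motifs were the TCF/LEF site (CTTTGAA or CTTTGAT), the retinoic acid receptor half-site (AGGTCA) and the E-box CAGCTG, and none of these overlaps another in the windows shown. For Adgrl3 and Adgrf5, which have several annotated starts, the first one in the table is given.
Adgrg6 promoter, chr10:14544987-14545286, minus strand: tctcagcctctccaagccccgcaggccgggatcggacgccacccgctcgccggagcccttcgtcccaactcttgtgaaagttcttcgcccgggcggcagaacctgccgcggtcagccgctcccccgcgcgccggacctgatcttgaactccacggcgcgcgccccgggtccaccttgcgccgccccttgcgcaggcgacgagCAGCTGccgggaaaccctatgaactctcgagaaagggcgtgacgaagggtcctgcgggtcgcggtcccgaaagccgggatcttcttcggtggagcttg
Adgrb3 promoter, chr1:25829658-25829957, minus strand: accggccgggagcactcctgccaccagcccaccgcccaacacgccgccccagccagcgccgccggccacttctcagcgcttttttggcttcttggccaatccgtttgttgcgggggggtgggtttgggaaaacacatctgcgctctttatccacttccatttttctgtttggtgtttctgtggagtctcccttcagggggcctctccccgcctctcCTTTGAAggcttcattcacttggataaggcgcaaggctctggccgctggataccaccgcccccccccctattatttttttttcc
Adgrl3 promoter, chr5:81020321-81020620, plus strand: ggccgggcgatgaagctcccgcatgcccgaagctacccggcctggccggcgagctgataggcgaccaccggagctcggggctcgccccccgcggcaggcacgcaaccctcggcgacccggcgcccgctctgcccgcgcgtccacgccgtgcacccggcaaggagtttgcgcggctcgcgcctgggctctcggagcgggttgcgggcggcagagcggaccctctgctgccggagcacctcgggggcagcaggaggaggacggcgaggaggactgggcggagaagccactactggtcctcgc
Adgrf5 promoter, chr17:43360181-43360480, plus strand: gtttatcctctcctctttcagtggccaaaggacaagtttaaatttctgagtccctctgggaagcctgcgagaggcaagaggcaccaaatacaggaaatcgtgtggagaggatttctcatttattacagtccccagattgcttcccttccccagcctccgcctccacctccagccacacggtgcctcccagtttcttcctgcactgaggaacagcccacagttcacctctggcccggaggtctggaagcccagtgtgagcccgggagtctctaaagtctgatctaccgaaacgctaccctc

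The Adgrg6 window held the E-box, which 16.3% of all 32851 promoters in the table held. The Adgrb3 window held the TCF/LEF motif, present in 8.65% of all promoters, and was the only one of the 25 member promoters with it. The E-box was in 4 member promoters and the retinoic acid receptor half-site in 2, against 16.3% of all promoters for the half-site. The windows differed in CG dinucleotides, the sites of DNA methylation. There were 38 in that of Adgrg6, 40 in that of Adgrl3, 16 in that of Adgrb3 and 8 in that of Adgrf5, against a median of 7 over all promoters and an upper quartile of 20. The Adgrl3 windows not shown had 21 and 20, and the one with 21 held the E-box. A match is a string of letters and says nothing of binding.

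The values are log2 signals after robust multi-array averaging (RMA), 1 per transcript cluster and array, and array medians lay between 4.82 and 4.91. Brachial replicate 1 and tail replicate 3 stood apart from their groups in marker lists. The mean level of 12 mesenchyme markers was 9.79, 9.54 and 8.44 in tail replicates 1, 2 and 3, against 8.42 in brachial replicate 1 and 5.20 and 5.16 in brachial replicates 2 and 3. The mean of 10 skeletal muscle markers was 4.89 to 5.18 in tail NPCs, against 6.82 in brachial replicate 1 and 4.97 to 5.01 in the other brachial samples. Tail replicate 3 lay within the brachial range in radial glia and astrocyte markers, with a mean of 9.25, where the other tail samples had 8.04 and 8.29 and brachial samples 8.89 to 9.71. The 12 neural progenitor markers averaged 8.52 to 8.87 in tail NPCs, against 8.80 to 9.05 in brachial NPCs. In such mixed samples fewer cells of a type and less RNA per cell cannot be told apart. Nothing states that the replicates were separate cultures, so p-values measure only the spread between these samples, which may be technical.

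Adgrg6 was lower in all 3 tail samples than in any brachial sample and was the 1 member that passed the test, with group means that differed by 4.71-fold. Its RMA values were 4.96, 4.81 and 5.20 in tail replicates 1 to 3, against 6.82, 7.16 and 7.71 in brachial replicates 1 to 3. The tail values lay within a narrow band near the array medians, where no detection call was used, so the fold is one of signals that may include background, and 1.61 log2 units separated the highest tail from the lowest brachial sample. Its mean value reached 4.99 ± 0.196 in tail NPCs, against 7.23 ± 0.448 in brachial NPCs (SD, n = 3 per group). The log2 fold change, tail minus brachial, was -2.24 (SE 0.240, 95% interval -2.81 to -1.67), with a Benjamini-Hochberg adjusted p of 0.0468 by limma over all 22180 genes. By this test 0.104% of all genes were called, 14 higher and 9 lower in tail NPCs, and Adgrg6 ranked 18 by p. An exact permutation test of 3 against 3 arrays cannot give a p below 0.10. The call was lost when tail replicate 1, tail replicate 2, brachial replicate 2 or brachial replicate 3 was left out, with log2 fold changes of -2.27 to -1.998 and adjusted p of 0.118 to 0.223, and also when all transcript clusters were tested together (adjusted p = 0.0905). It was kept without tail replicate 3 (adjusted p = 0.0223) and without brachial replicate 1 (adjusted p = 0.0212), the samples that stood apart in marker lists. Brachial replicate 1, with mesenchyme markers close to the level of tail replicate 3, had the lowest brachial value of Adgrg6, and the part of mesenchyme in the Adgrg6 result was not tested.

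Across the family 11 of 27 genes had a log2 fold change above 0 and 16 below 0. The groups did not overlap for 10 members (37%), 3 with all tail samples above and 7 with all tail samples below the brachial ones, against 16.2% of all genes. Members with an unadjusted p under 0.05 numbered 11 (40.7%), 5 of them higher and 6 lower in tail NPCs, against 11.8% of all genes. A difference of 2-fold or more was present for 2 higher members, Adgrf5 and Adgra2, and 3 lower ones, Adgrg6, Adgrb3 and Adgrl3, where 2.35% of all genes were that much higher and 1.74% that much lower. The median log2 fold change was -0.05 over members and -0.03 over all genes, and the median size without sign was 0.351 over members and 0.153 over all genes. Members thus lay on both sides of 0, without a common direction. After adjustment by limma 0 members were higher and 1 was lower.

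**Figure D1:**
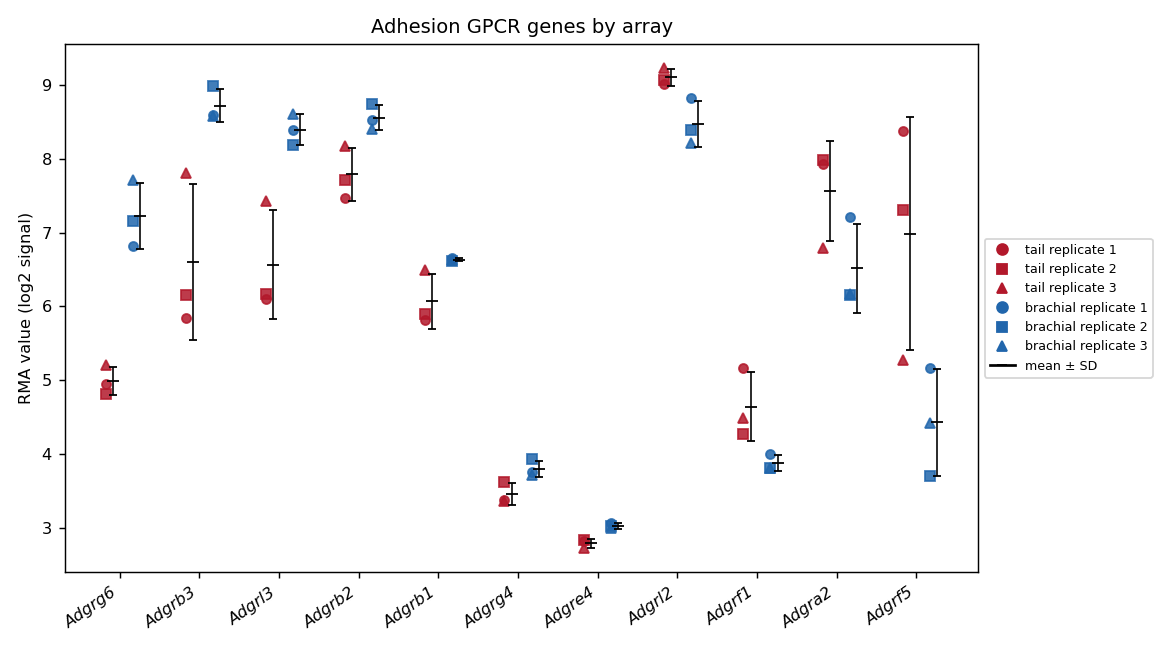
RMA values (log2 signal, vertical axis) of the 11 members that passed the test, differed by 2-fold or more or had groups that did not overlap, with tail samples in red to the left of brachial samples in blue; the shape gives the replicate number and bars show mean ± SD (n = 3). Adgrg6 has its tail values at 4.81 to 5.20 below all brachial values at 6.82 to 7.71, while Adgrb3, Adgrl3 and Adgrf5 have tail replicate 3 close to the brachial samples.

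The latrophilins (Adgrl1 to Adgrl3) are receptors for teneurins and FLRT proteins at synapses and on migrating neurons. Adgrl3 was measured by 2 transcript clusters, both lower in every tail than in every brachial sample. The cluster with the higher mean had 6.10, 6.17 and 7.42 in tail NPCs, against 8.39, 8.18 and 8.60 in brachial NPCs. Tail replicate 3 stood well above the other tail samples, though below all brachial ones. The log2 fold change was -1.83 (SE 0.356) and did not pass the test (adjusted p = 0.184, limma). The second Adgrl3 cluster had 4.14, 4.27 and 4.65 in tail NPCs and 4.81, 5.05 and 5.53 in brachial NPCs, a log2 fold change of -0.78 (SE 0.228, adjusted p = 0.412 by limma over all transcript clusters). Both clusters therefore ran the same way, with a smaller difference at the second one. The tail values of that second cluster lay below the array medians, with no detection call used, so its signals may include background. Adgrl2 ran the other way, with 9.01, 9.07 and 9.23 in tail NPCs, against 8.82, 8.38 and 8.21 in brachial NPCs. Its log2 fold change of 0.63 (SE 0.180) did not pass the test (adjusted p = 0.296). Adgrl1 differed by -0.05 with overlapping groups, within the interval -0.33 to 0.23. Adgrl4 (Eltd1), placed beside the latrophilins by sequence and known from endothelial cells, had values of 2.91 to 3.27 in tail NPCs and 3.25 to 3.49 in brachial NPCs.

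Of 10 listed latrophilin partners, teneurins, FLRT proteins and neurexins, 9 were measured and 0 passed the test, with 2 higher and 1 lower at p under 0.05 before adjustment, against 11.8% of all genes. Their median log2 fold change was -0.12. Flrt2, a ligand of latrophilins on opposing cells, had 8.44, 7.97 and 7.06 in tail NPCs and 7.18, 6.52 and 6.12 in brachial NPCs, a log2 fold change of 1.22 (adjusted p = 0.334). Nrxn2, a presynaptic neurexin, had 6.08, 6.35 and 7.38 in tail NPCs and 7.14, 8.07 and 7.80 in brachial NPCs, a log2 fold change of -1.07 (adjusted p = 0.366). Both overlapped between groups, through tail replicate 3 and brachial replicate 1.

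The brain-specific angiogenesis inhibitors (Adgrb1 to Adgrb3) are receptors of neurons and glia that take part in synapse formation and, for Adgrb1, the uptake of apoptotic cells. All 3 were lower in every tail than in every brachial sample, and none of the 3 passed the test. Adgrb3, a receptor for C1q-like proteins, had 5.85, 6.16 and 7.81 in tail NPCs, against 8.59, 8.98 and 8.58 in brachial NPCs. Tail replicate 3 lay apart from the other tail samples and 0.772 below the lowest brachial one. The log2 fold change of Adgrb3 was -2.11 (SE 0.487, adjusted p = 0.233), close in size to that of Adgrg6 but with an SD over tail samples of 1.06 in place of 0.196. Adgrb2 had 7.47, 7.71 and 8.17 in tail NPCs and 8.52, 8.74 and 8.41 in brachial NPCs (log2 fold change -0.77, adjusted p = 0.271). Adgrb1 had 5.81, 5.90 and 6.49 in tail NPCs and 6.65, 6.61 and 6.63 in brachial NPCs (log2 fold change -0.56, adjusted p = 0.350). In each of the 3 genes tail replicate 3 was the tail sample nearest to the brachial ones. Of 10 neuron markers 0 were higher and 4 lower before adjustment, against 11.8% of all genes. Their mean level was 6.22 to 6.53 in tail NPCs and 6.54 to 7.15 in brachial NPCs. The part of neurons in the values of Adgrb1 to Adgrb3 was not tested. Of 9 listed partners of these receptors 8 were measured and 0 passed the test. Before adjustment 0 were higher and 1 was lower, against 11.8% of all genes, and the median log2 fold change was -0.17. The 1 lower gene was C1ql2, a C1q-like ligand, at 4.56 to 4.93 in tail NPCs and 5.07 to 5.41 in brachial NPCs. It was under 2-fold and is named here after its values were seen.

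**Figure D2:**
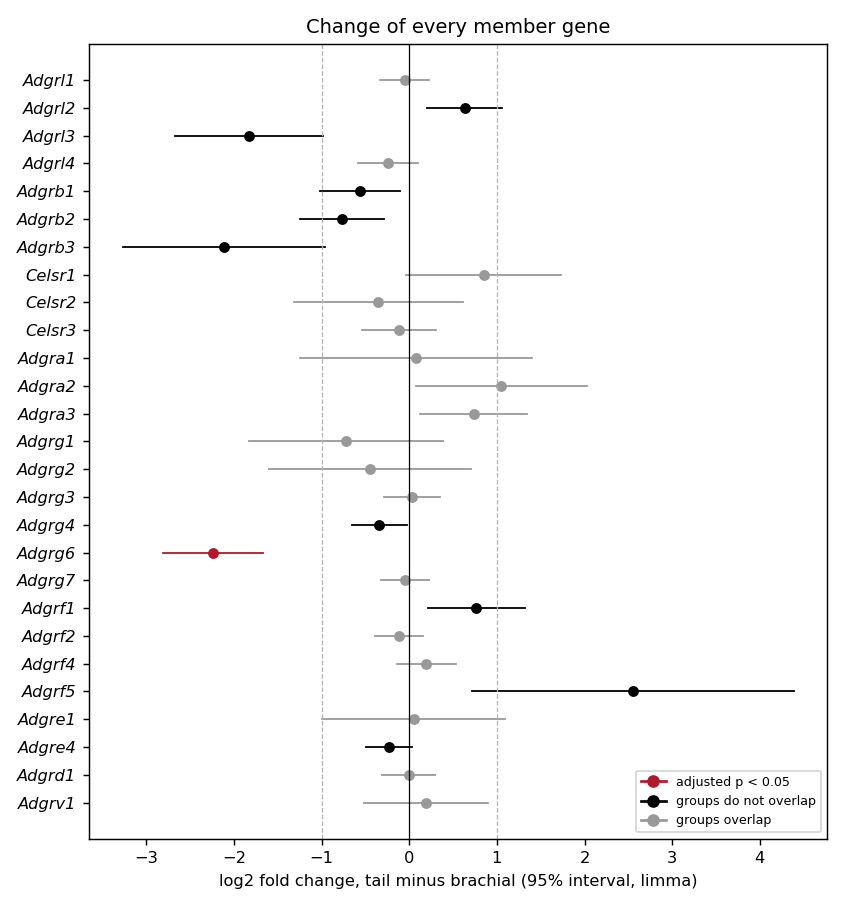
Log2 fold change, tail minus brachial NPCs, of all 27 member genes (horizontal axis) with the 95% interval from limma, grouped by subfamily down the page; dashed lines mark 2-fold. Adgrg6 (red, -2.24) is the 1 gene with an adjusted p under 0.05, black genes have groups that do not overlap and grey genes overlap; Adgrf5 has the highest value (2.55) and the widest interval.

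Celsr1, Celsr2 and Celsr3 are atypical cadherins of the planar cell polarity pathway, which orients cells within an epithelium and, in the neural tube, guides its closure and axon growth. None of the 3 passed the test or had separated groups. Celsr1, which acts in neural tube closure, lay between 6.43 and 7.78 in tail NPCs and between 5.999 and 6.80 in brachial NPCs (log2 fold change 0.85, interval -0.03 to 1.73). Celsr2 lay between 5.88 and 7.03 in tail NPCs and between 6.34 and 7.53 in brachial NPCs, and Celsr3 differed by -0.11. The sign of Celsr2 and that of Celsr3 turned when tail replicate 1 was left out. The 15 core and associated genes of the pathway gave 0 calls, with 4 higher and 2 lower before adjustment, against 11.8% of all genes, and a median log2 fold change of 0.21. The groups did not overlap for 6 of the 15, against 16.2% of all genes, and no gene reached 2-fold.

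Adgra2 (Gpr124) serves with Reck as a coreceptor for Wnt7 in the growth of brain vessels, and Adgra3 and Adgra1 are its less studied relatives. Adgra2 had 7.93, 7.98 and 6.78 in tail NPCs, against 7.21, 6.16 and 6.17 in brachial NPCs. The groups overlapped, since tail replicate 3 lay below brachial replicate 1. Its log2 fold change was 1.05 (SE 0.411, adjusted p = 0.398), and no array left out made it pass the test. It was 1.44 without tail replicate 3 and 1.40 without brachial replicate 1, but under 2-fold, at 0.84 to 0.88, without any one of the other 4 arrays. Adgra3 lay between 8.91 and 9.73 in tail NPCs and between 8.38 and 8.97 in brachial NPCs (log2 fold change 0.73, adjusted p = 0.356). Adgra1 differed by 0.08 and had the same sign in 9 of 14 alternative settings. Of the 6 genes listed with Adgra2, none passed the test, and the median log2 fold change was 0.15. Before adjustment 2 were higher and 1 was lower, against 11.8% of all genes. Reck, the anchored protein that holds Wnt7 for Adgra2, had 8.08, 8.05 and 7.40 in tail NPCs and 7.42, 5.71 and 6.15 in brachial NPCs (log2 fold change 1.41, adjusted p = 0.320). Wnt7b, a Wnt7 ligand, had 5.74, 5.95 and 7.15 in tail NPCs and 7.82, 7.72 and 8.32 in brachial NPCs (log2 fold change -1.67, adjusted p = 0.222). Wnt7a, also listed, overlapped between groups, at 5.68 to 7.34 in tail NPCs and 6.73 to 7.30 in brachial NPCs (log2 fold change -0.57). The coreceptor and Reck thus had higher means, and Wnt7b a lower mean, in tail NPCs, none of them past the test. Values of Adgra2 and Reck and the mean level of the mesenchyme markers were each higher in brachial replicate 1 than in the other brachial samples, and the part of those cells in these results was not tested.

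Adgrf5 (Gpr116), which controls surfactant release in the lung and is also found in endothelial cells, had the largest fold change of the family. It had 8.38, 7.30 and 5.27 in tail NPCs, against 5.16, 3.71 and 4.42 in brachial NPCs. The brachial values lay near or below the array medians, so the fold is one of signals that may include background. The groups did not overlap, but only 0.107 separated tail replicate 3 from brachial replicate 1, and tail samples spread widely (SD 1.58). The log2 fold change of 2.55 (SE 0.773, interval 0.72 to 4.39) did not pass the test (adjusted p = 0.310), and with 1 array left out it ran from 1.86 without tail replicate 1 (adjusted p = 0.636) to 3.41 without tail replicate 3 (adjusted p = 0.0395). Beside it, 2 of 15 endothelial markers were 2-fold or more higher, against 2.35% of all genes, again without passing the test. Kdr, the receptor for vascular endothelial growth factor, had 9.81, 8.65 and 5.63 in tail NPCs and 5.26, 5.44 and 5.09 in brachial NPCs, the same order of tail samples as Adgrf5. Plvap had 7.82, 9.15 and 7.15 in tail NPCs and 6.97, 6.80 and 6.76 in brachial NPCs. Flt1, another receptor for that growth factor, was also separated, at 4.85 to 5.01 in tail NPCs and 4.68 to 4.77 in brachial NPCs. The groups overlapped for the other 12 markers, and over the list 9 had a log2 fold change above 0 and 6 below 0. Among the overlapping ones Pecam1 had 4.85 to 4.997 in tail NPCs and 4.88 to 5.04 in brachial NPCs, Cdh5 had 4.39 to 5.12 in tail NPCs and 4.41 to 4.94 in brachial NPCs, and Tek had 4.12 to 4.18 in tail NPCs and 3.94 to 4.40 in brachial NPCs. These 3 and Flt1 lay near or below the array medians, with no detection call used. The mean level of all 15 markers was 4.84 to 5.27 in tail NPCs and 4.77 to 4.85 in brachial NPCs. Of 10 pericyte and smooth muscle markers 3 were higher and 0 lower before adjustment, against 11.8% of all genes. Their mean level was 6.53 to 6.82 in tail NPCs and 5.28 to 6.19 in brachial NPCs. The part of such cells in the Adgrf5 result was not tested.

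Adgrf1 (Gpr110), a receptor for the lipid amide synaptamide on neurons, was also higher in every tail sample, at 5.17, 4.28 and 4.49 in tail NPCs and 4.001, 3.82 and 3.81 in brachial NPCs (log2 fold change 0.77, SE 0.235, adjusted p = 0.315). It is one of 12 members whose mean lay below the median of all transcript clusters, and no detection call was used here, so whether such signals are above background is not known. The genes Adgrf1, Adgrf2, Adgrf4 and Adgrf5 all lie on chromosome 17, and Adgrf2 and Adgrf4 differed by -0.11 and 0.19 with overlapping groups.

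**Figure D3:**
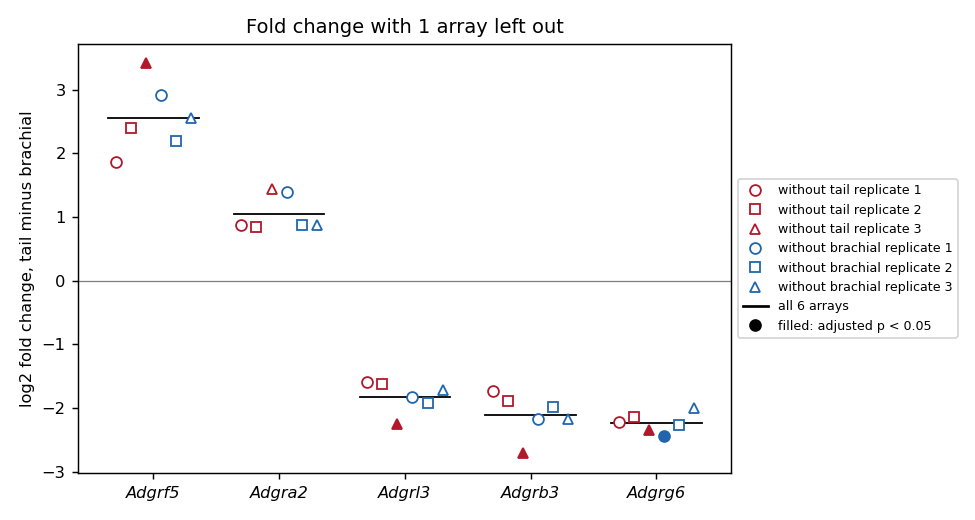
Log2 fold change, tail minus brachial NPCs (vertical axis), of the 5 members with a difference of 2-fold or more when each array was left out in turn; the line is the value with all 6 arrays, red stands for a tail and blue for a brachial array left out, and filled symbols have an adjusted p under 0.05. Without tail replicate 3 Adgrf5 (3.41), Adgrb3 (-2.72), Adgrl3 (-2.25) and Adgrg6 are filled, while without any other single array at most Adgrg6 is.

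Without tail replicate 3, 4 members were called in place of 1. These were Adgrb3 (log2 fold change -2.72, adjusted p = 0.0090), Adgrl3 (-2.25, adjusted p = 0.0097), Adgrf5 (3.41, adjusted p = 0.0395) and Adgrg6. The number of called genes also grew in the whole table, to 266 (1.2% of all genes) without tail replicate 3, and it fell to 0 without tail replicate 1 or tail replicate 2. In all 4 genes tail replicate 3 was the tail sample nearest to the brachial ones, and the SD over tail samples was 0.196 for Adgrg6, 1.06 for Adgrb3, 0.743 for Adgrl3 and 1.58 for Adgrf5. Tail replicate 3 was also the tail sample with the lowest mean of mesenchyme markers (8.44) and with radial glia and astrocyte markers in the brachial range (9.25), and the part of such cells was not tested.

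Among the other members with separated groups, Adgrg4 and Adgre4 differed little. Adgrg4 (Gpr112) had 3.37, 3.63 and 3.37 in tail NPCs and 3.75, 3.93 and 3.72 in brachial NPCs. Adgre4 had 2.83, 2.84 and 2.73 in tail NPCs and 3.07, 3.02 and 2.99 in brachial NPCs. Their log2 fold changes were -0.34 (adjusted p = 0.394) and -0.23 (adjusted p = 0.468). Both were, like Adgrf1, among the 12 members with a mean below the median of all transcript clusters.

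The remaining 16 members had overlapping groups and less than 2-fold difference, 7 above 0 and 9 below 0. Their log2 fold changes ran from -0.72 for Adgrg1 to 0.85 for Celsr1, and their adjusted p from 0.356 to 0.993. Adgrg1 (Gpr56), a receptor for collagen III in the developing cortex and in oligodendrocyte precursors, had 9.20, 10.43 and 11.24 in tail NPCs, against 11.12, 10.95 and 10.96 in brachial NPCs. Tail replicates 1 and 2 lay below all brachial samples, and tail replicate 3 above them. Adgrg2 (Gpr64) had 5.54 in brachial replicate 1, where all other samples, tail and brachial, lay between 3.68 and 4.06. Adgre1, a surface antigen of macrophages, lay between 4.17 and 5.62 in tail NPCs and between 4.21 and 5.18 in brachial NPCs. Of 12 macrophage markers 0 were higher or lower before adjustment, against 11.8% of all genes. Adgrv1, known from hair cells of the inner ear, and Adgrd1 differed by 0.19 and -0.01.

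Set against the family, Adgrg6 was compared through its deviation in each array from its own mean over the 6 arrays, since levels of different probe sets are not comparable. The deviation of Adgrg6 was -1.15, -1.29 and -0.91 in tail NPCs and 0.71, 1.05 and 1.60 in brachial NPCs. The median deviation of the other 26 members was -0.11, 0.03 and -0.01 in tail NPCs and 0.12, 0.06 and -0.04 in brachial NPCs. With members on both sides, this median says little of single genes, which deviated by as much as -1.996 (Adgrf5, brachial replicate 2) and 2.67 (Adgrf5, tail replicate 1). Further down than Adgrg6 were 3, 2 and 0 of the other 26 members in tail replicates 1, 2 and 3. In brachial replicates 1, 2 and 3 the deviation of Adgrg6 was above that of 23, 25 and 26 of them. The fold change of Adgrg6 minus the median of the other members was -2.19, and between -2.40 and -1.92 over 8 alternative settings. These are descriptions, since members of a family are not replicates.

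**Figure D4:**
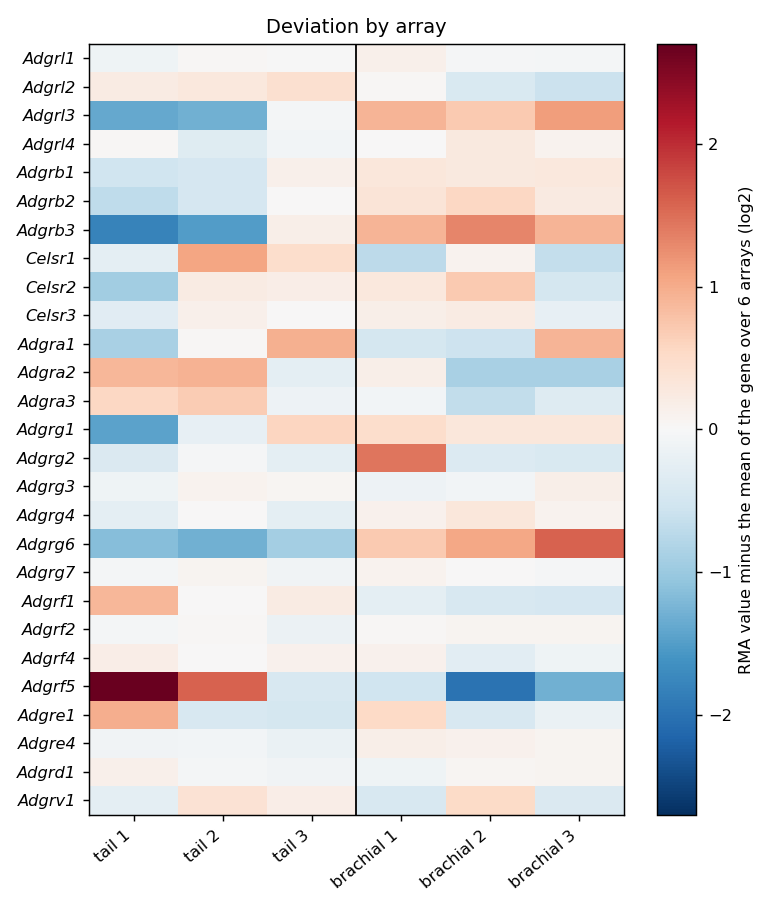
Deviation of each member gene (rows) from its own mean over the 6 arrays, in log2 units, with the 3 tail arrays left of the 3 brachial arrays; blue is below and red above the mean. Adgrg6 is blue in all 3 tail arrays (-1.29 to -0.91) and red in all 3 brachial arrays, whereas Adgrb3, Adgrl3 and Adgrf5 are near 0 or turned in tail replicate 3.

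Several members had a profile over the arrays like that of Adgrg6. Pearson's r with Adgrg6 over the 6 arrays was 0.926 for Adgrl3, 0.874 for Adgrb3 and 0.847 for Adgrb2, and it was -0.917 for Adgrl2. Among all 2641 genes whose SD over the arrays was at least 0.5, the 5 with the highest r were Vxn (0.998), Grm3 (0.996), Wasf1 (0.994), Ak5 (0.988) and Anks1b (0.985). Vxn, which acts in neural differentiation, had 5.09, 4.86 and 5.28 in tail NPCs and 8.03, 8.27 and 9.22 in brachial NPCs. Grm3, a metabotropic glutamate receptor, had 4.44, 4.44 and 4.69 in tail NPCs and 8.52, 9.25 and 9.90 in brachial NPCs. All 5 had every tail sample below every brachial one. Grm3, Vxn and Ak5 passed the test (adjusted p = 0.0163, 0.0259 and 0.0271 by limma), and Wasf1 and Anks1b did not (0.0820 and 0.0797). The 6 arrays fall into 2 groups, and the 5 genes were chosen for likeness to Adgrg6, whose groups did not overlap. The r values, and the separation and calls of the 5 genes, are therefore given as a description.

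The known ligands of Adgrg6 are collagen IV, a laminin of Schwann cells and the prion protein. Of 10 listed genes 9 were measured and 0 passed the test, with 3 higher and 1 lower before adjustment, against 11.8% of all genes, and a median log2 fold change of 0.61. Lama2 had 7.49, 7.95 and 7.41 in tail NPCs and 6.93, 4.67 and 4.77 in brachial NPCs (log2 fold change 2.16, adjusted p = 0.280). Col4a2 had 7.80, 7.98 and 7.29 in tail NPCs and 7.27, 5.57 and 4.84 in brachial NPCs (1.79, adjusted p = 0.331). Col4a1 had 8.10, 8.21 and 7.40 in tail NPCs and 7.52, 6.33 and 4.83 in brachial NPCs. Its log2 fold change was 1.68 (adjusted p = 0.382), with overlapping groups. In all 3 genes brachial replicate 1 lay next to the tail samples, as it did in the mesenchyme markers. Of these 12 markers 11 had a log2 fold change above 0 and 0 were called. Before adjustment 11 were higher, against 11.8% of all genes, and 10 were 2-fold or more higher, against 2.35% of all genes. Their median log2 fold change was 3.54. The part of mesenchyme in the values of Lama2, Col4a2 and Col4a1 was not tested.

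Genes that act downstream of Adgrg6 in Schwann cells gave no call either. Of 6 listed genes 5 were measured and 0 passed the test, with 3 higher and 0 lower before adjustment, against the same 11.8%, and a median of 0.34. Egr2 (Krox20), the transcription factor of Schwann cell myelination, had 10.17, 9.57 and 8.44 in tail NPCs and 7.70, 8.30 and 6.47 in brachial NPCs (log2 fold change 1.90, SE 0.575, adjusted p = 0.310). Every tail sample was above every brachial sample, the opposite order to Adgrg6. Of 8 measured neural crest and Schwann cell markers 0 were higher and 1 was lower before adjustment, against 11.8% of all genes. By 2-fold or more 1 was higher (2.35% of all genes) and 2 were lower (1.74% of all genes), and 0 passed the test. Cdh19 (log2 fold change -1.93) had 3.21, 3.34 and 3.19 in tail NPCs and 3.27, 5.85 and 6.41 in brachial NPCs. Dhh (-1.15) was lower in every tail than in every brachial sample, and Ngfr (1.96) had overlapping groups. The mean level of the 8 markers was 5.36 to 5.76 in tail NPCs and 5.71 to 5.97 in brachial NPCs. In oligodendrocyte lineage markers 0 of 8 were higher and 3 lower before adjustment, against 11.8% of all genes. Their mean level was 7.56, 7.32 and 8.39 in tail NPCs and 8.89, 9.05 and 8.88 in brachial NPCs, a lower level in every tail than in every brachial sample, and their part in the Adgrg6 result was not tested.

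Of 16 measured enzymes that make, bind or break down cAMP 0 passed the test, with 1 higher and 6 lower before adjustment, against 11.8% of all genes, and a median log2 fold change of -0.16. Adcy8 had 4.18, 3.91 and 5.13 in tail NPCs and 6.41, 6.93 and 6.06 in brachial NPCs (log2 fold change -2.06, adjusted p = 0.153). Adcy2 had 7.81, 7.30 and 6.31 in tail NPCs and 6.05, 5.87 and 5.14 in brachial NPCs (1.45, adjusted p = 0.293). These 2 adenylyl cyclases, both with separated groups, had fold changes of opposite sign. Of 13 G alpha subunits 0 passed the test, and the median was -0.08. Before adjustment 0 were higher and 2 lower, against the same 11.8%, none by 2-fold. Of the 5 genes listed with Adgrg1 as ligands or effectors 0 passed the test. Among them Col3a1 had 10.71, 10.70 and 9.47 in tail NPCs, against 9.70, 5.33 and 5.19 in brachial NPCs (log2 fold change 3.55, adjusted p = 0.336). It is also one of the mesenchyme markers, and brachial replicate 1 lay among the tail samples.

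**Figure D5:**
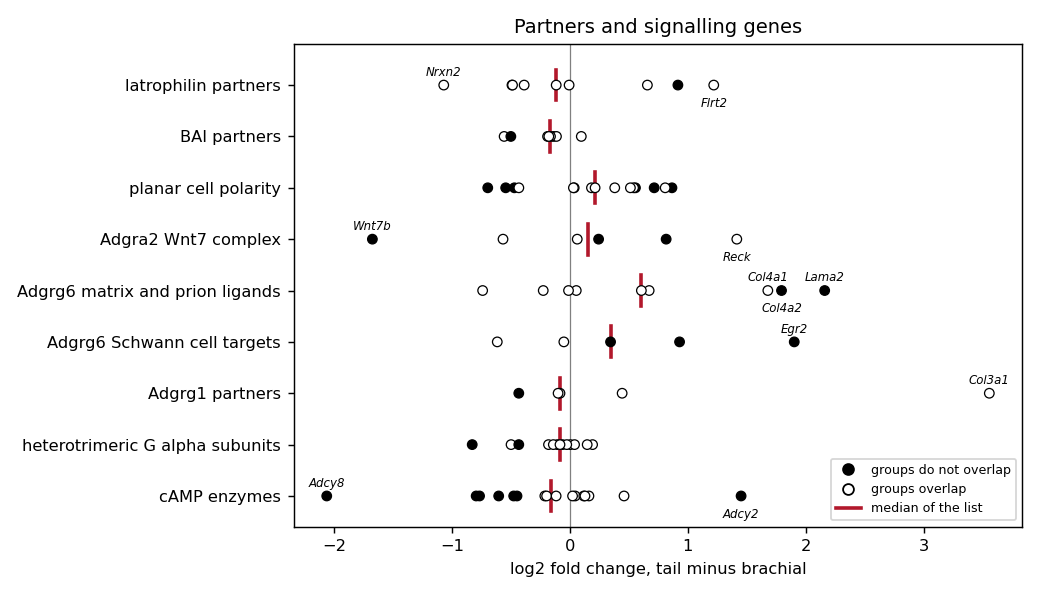
Log2 fold change, tail minus brachial NPCs (horizontal axis), of the listed partner and signalling genes of the receptors, 1 point a gene and 1 row a list; filled points have groups that do not overlap, the red line is the median of the list, and genes of 2-fold or more are named. The medians lie between -0.17 and 0.61, and no listed gene had an adjusted p under 0.05.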

How the data were processed

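Gene expression was measured on 6 whole-transcript arrays. The deposited values are log2 signals that the authors made at gene level with RMA in Affymetrix Expression Console (versions not given in the sources used here). Background correction, quantile normalization and summary over probes are therefore in the values, and differences in total RNA cannot be read from them. The methods name a human array, whereas the annotation used here gives mouse genes. Scanner files were not used here.

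All 6 columns were mapped by sample title. Of 41345 transcript clusters, 23521 had 1 symbol, 1820 several and 16004 none. A gene was taken at its cluster of highest mean, with no filter on low values. Tail and brachial NPCs were compared with limma 3.58.1 (lmFit, eBayes) in R 4.3.3, with no block, over 22180 genes, with a call where the p adjusted by Benjamini-Hochberg was under 0.05. The study itself used a fold change of 2 and names no test for the arrays. The step was tested on simulated data. Members and gene lists were chosen with earlier results of these data known. Values in every array are given for members that were called, differed by 2-fold or more or had groups that did not overlap. They are also given for listed partner and signalling genes of 2-fold or more, up to 3 per direction. Marker lists are given by counts and mean levels, and only some of their genes of 2-fold or more are named. Adgrg1 was added to the members shown after its values were seen. Alternatives were the replicate number as a block, array weights, trended and robust eBayes, the mean over clusters, all clusters tested, dim genes left out, quantile normalization again, centring on housekeeping genes and each array left out. Promoters came from RefSeq, and plots from Python 3.11.15 with matplotlib 3.10.9.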

Additional observations from a re-analysis of the deposited data

How the results depend on the processing

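Under 14 alternatives the log2 fold change of Adgrg6 stayed below 0, but most of them could not have turned its sign. The replicate block, the eBayes settings, the mean over clusters, all clusters tested and dim genes left out cannot change its estimate. With separated groups, no single array left out could turn the sign. The difference of Adgrg6 from the family median moved by less than 1 SD of the replicates from the main fit in all 8 settings run for it. It could hardly move further, since leaving out 1 of 3 arrays shifts a group mean by less than 1 SD. Centring on housekeeping genes shifts all genes alike and leaves this difference as it is. With all transcript clusters tested, the fold change of Adgrg6 remained -2.24 but its adjusted p was 0.0905, and 0 members were called lower, in a fit that both moderated the spread and adjusted p over 41345 clusters. Leaving out 1 array gave 0 to 3 members called lower, 0 to 1 called higher (Adgrf5, without tail replicate 3) and a log2 fold change of Adgrg6 of -2.44 to -1.998. Deviations of same-numbered samples had correlations of 0.244, -0.12 and 0.215, and those of differently numbered samples -0.327 to 0.151. With 3 samples a group these values cannot decide whether the numbers pair the samples, and the labels do not say. With the replicate block 0 members were called higher and 1 lower, the adjusted p of Adgrg6 was 0.0241, and 194 genes were called in all, against 23 without it. Array weights called 39 genes. Leaving out 1 array called 0 (without tail replicate 1 or 2) to 266 genes (without tail replicate 3). Leaving out dim genes kept 15 of 27 members. Centring on housekeeping genes moved the median of all genes to -0.12, against -0.03. Of the fold changes of the 11 members named with values in every array by rule, over all these settings, 143 kept their side of the threshold, 3 passed it newly and 5 lost it. All 5 losses were of Adgrg6, the 1 member called in the main fit, in 5 of its 14 settings. All 3 gains came without tail replicate 3, and most of the 143 were members not called in either fit. Actc1, a muscle gene used only in a marker list, had a log2 fold change of -1.16, and of -1.93 to 0.21 with 1 array left out, the highest without brachial replicate 1. The number of arrays, 3 a group, limits the precision.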

Other observations

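One more transcript cluster holds an adhesion G protein-coupled receptor but is annotated to both Adgre5 (CD97, a receptor of leukocytes and other cells for CD55) and the neighbouring RNA helicase gene Ddx39a, so its signal cannot be given to either gene and it is no member. It had 10.34, 10.08 and 8.51 in tail NPCs, against 8.80, 8.51 and 7.58 in brachial NPCs. The groups overlapped, and the log2 fold change of 1.34 (SE 0.534) did not pass the test (adjusted p = 0.519 by limma over all transcript clusters). Of 4 listed partners of Adgre5, 0 passed the test and 1 was higher before adjustment, against 11.8% of all genes. That gene, the integrin subunit Itga5, had 9.42, 9.12 and 8.38 in tail NPCs and 8.31, 8.24 and 7.21 in brachial NPCs, with a log2 fold change of 1.05 (adjusted p = 0.364) and groups that did not overlap.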
